A study of Mus musculus with 2 samples.

Results

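Peroxiredoxins, thioredoxin and the glutathione enzymes remove hydrogen peroxide and lipid peroxides and return oxidised protein thiols to their reduced form. Peroxiredoxins use a reactive cysteine that thioredoxin recycles, whereas glutathione peroxidases spend glutathione, which glutathione reductase regenerates with NADPH. T cells make peroxide after antigen receptor stimulation, phagocytes release it in large amounts, and both need these enzymes to limit the damage. The group described here is 10 genes chosen by symbol: the peroxiredoxins Prdx1, Prdx2, Prdx3, Prdx5 and Prdx6, the thioredoxin Txn1, the glutathione peroxidases Gpx1 and Gpx4, the glutathione reductase Gsr and the glutathione synthesis subunit Gclm. They were chosen with earlier results of these data known. Of these, 7 were measured by probe sets that carry their symbol alone (11 probe sets, out of 22690 on the array). Prdx1 was covered by 5 probe sets that the platform table lists for both Prdx1 and the pseudogene Gm21399, and these are given separately. No probe set was listed under Prdx5 or Prdx6, and both are not analysed here.

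Both samples were CD4+ T cells sorted magnetically from the spleens of mice that had received glucose-6-phosphate isomerase (GPI), a glycolytic enzyme used here to induce arthritis, 7 days earlier. One group was DBA/1, a strain susceptible to this arthritis, and the other was C57BL/6, a resistant strain. Each was measured on 1 array from 3 µg of total RNA, and both groups had been immunised, so there was no unimmunised control. The sources used here do not give the age and sex of the mice or say whether several mice were pooled for an array. The purpose of the series was to find molecules at high levels on autoreactive T cells of the susceptible strain.

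With 1 array per strain no difference has a replicate check, and every value below describes this pair of arrays and not the strains. Signals are MAS5 intensities on a linear scale, and the log2 ratio is that of DBA/1 over C57BL/6, so a positive value means more signal in DBA/1. Signals under an array's median (37.6 in DBA/1 and 38.04 in C57BL/6) were set to that median, called the floor. Repeat measurements exist only where a gene has several probe sets. For 2325 genes a pair above the floor on both arrays could be compared; the SD of the difference in log2 ratio was 0.43, an error of 0.31 per probe set. That error covers the probes only, and not mice, sorts or labelling. As deposited, the median log2 ratio of the 6937 genes above the floor was 0.10, and it lay between -0.0064 and 0.024 after median centring, trimmed-mean scaling, quantile normalization or lowess, so small positive ratios have to be read against 0.10.

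The 7 measured members differed modestly between the strains and did not move as a block. Prdx3, Txn1 and Gpx4 had ratios near 1.5-fold in favour of DBA/1, Gpx1 was 1.24-fold higher there, Prdx2 and Gsr were nearly level in their brightest probe set, and Gclm was 1.58-fold higher in C57BL/6. The median log2 ratio of the members was 0.31, which is 0.21 above the median of all genes; this distance was 0.096 after quantile normalization and 0.13 after lowess. In 6 of 7 members the ratio was above 0, against 60.6% of all genes above the floor. After each of the 4 scalings it was above 0 in 5 of 7, against 49.1% to 52.4% of all genes. Counted at 1.5-fold, 1 of 7 members (14.3%) was higher in DBA/1, against 11.8% of all genes, and 1 of 7 was higher in C57BL/6, against 5.97%. These shares rest on 1 gene each. With 7 members 1 gene is already 14.3%, so the shares cannot be told apart from the background. No member was 2-fold apart in its brightest probe set, where 3.83% of all genes were 2-fold higher in DBA/1 and 1.9% in C57BL/6. The split over all genes at 1.5-fold was 820 higher and 414 lower in DBA/1 as deposited, and 595 and 582 after trimmed-mean scaling.

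**Figure D1:**
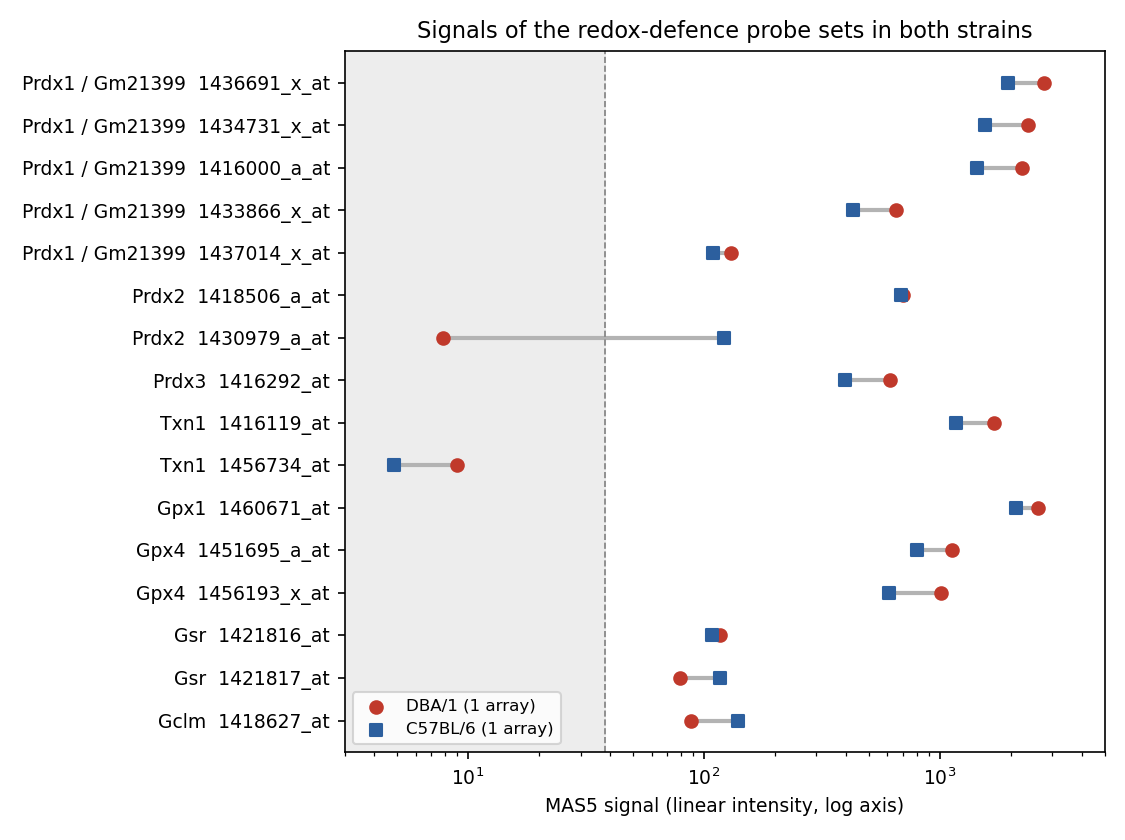
MAS5 signal (horizontal, log axis) of each of the 16 probe sets, with a red circle for the DBA/1 array and a blue square for the C57BL/6 array; the grey area lies under the floor. The red circle is to the right for all 5 probe sets shared by Prdx1 and Gm21399 and for Prdx3, Gpx1 and Gpx4, and to the left for Gclm, the dimmer Gsr probe set (79.2 and 117) and the dimmer Prdx2 probe set (7.82 and 122).

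Peroxiredoxins came out differently from one another. Prdx3, the peroxiredoxin of the mitochondrial matrix, read 614 in DBA/1 and 398 in C57BL/6 (probe set 1416292_at). That is a 1.54-fold difference (log2 ratio 0.62), and 10.5% of all genes above the floor had a ratio as high or higher. It was the highest ratio among the 7 members' brightest probe sets, against a probe error of 0.31, and it ranged from 0.49 to 0.54 after the 4 scalings, under the 1.5-fold line (0.58 on the log2 scale).

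Prdx2, a cytosolic peroxiredoxin that is abundant in red cells, read 700 in DBA/1 and 682 in C57BL/6 with its brighter probe set (1418506_a_at). The log2 ratio of 0.038 is far inside the probe error, and it turned to between -0.10 and -0.047 after the 4 scalings. Its second probe set (1430979_a_at) read 7.82 in DBA/1, under the floor, and 122 in C57BL/6, which is at least 3.24-fold higher in C57BL/6. The probe sets of Prdx2 therefore disagreed, by at least 1.73 on the log2 scale. The SD over the usual pairs was 0.43, but those pairs were above the floor on both arrays and this pair was not. RefSeq lists 2 curated transcripts for Prdx2, and which of them each probe set reads was not tested. Of 20 red cell genes listed, 14 had a probe set with 1 symbol. Of these, 12 were above the floor, 6 higher and 6 lower in DBA/1, where 60.6% of all genes were higher. The median log2 ratio of the list was -0.052 (-0.16 to -0.098 after the scalings). The summed signal of that list was 3284 in DBA/1 and 3013 in C57BL/6, led by Car2 (1014 and 898), Tfrc (735 and 562) and Slc4a1 (397 and 506), while Hba-a1 and Epb42 were under the floor on both arrays. Among the listed globin genes only Hba-a1 and Hbb-b2 (40.0 and 66.9) had a probe set with 1 symbol, so these values do not measure globin RNA as a whole. The part of red cells in the Prdx2 signals was not tested.

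The probe sets shared by Prdx1, a cytosolic peroxiredoxin of most cell types, and the pseudogene Gm21399 were all higher in DBA/1. The brightest (1436691_x_at) read 2775 in DBA/1 and 1953 in C57BL/6, a log2 ratio of 0.51. The one whose platform accession is a Prdx1 transcript (1416000_a_at) read 2227 and 1434 (1.55-fold). Another (1434731_x_at) read 2353 and 1553 (1.52-fold). All these signals are far above the floor. Of the dimmer ones, 1433866_x_at read 654 and 427 (1.53-fold) and 1437014_x_at read 130 and 110 (1.19-fold). So 5 of 5 had a positive ratio (median 0.60), and 3 of 5 were at least 1.5-fold higher, against 10.7% of all probe sets above the floor. They are annotated to the same pair of loci and are not independent of one another. After each of the 4 scalings the count at 1.5-fold was 0 of 5, with all 5 ratios still above 0, down to 0.14 for the dimmest. Because the platform table gives both symbols, the signal cannot be assigned to Prdx1 alone, and with Prdx1 counted as a member through the brightest of these probe sets the median over 8 members was 0.40.

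Txn1, cytosolic thioredoxin, donates electrons to peroxiredoxins and to ribonucleotide reductase. Its bright probe set (1416119_at) read 1698 in DBA/1 and 1174 in C57BL/6. The ratio was 1.45-fold (log2 ratio 0.53), with 14.1% of genes as high or higher, and it was 0.37 to 0.45 after the 4 scalings. The other Txn1 probe set (1456734_at) read 8.996 and 4.86, under the floor on both arrays, and gave no ratio.

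The glutathione peroxidases Gpx1 and Gpx4 are selenoproteins. Gpx1, which reduces soluble peroxides in cytosol and mitochondria, read 2603 in DBA/1 and 2100 in C57BL/6 (1460671_at). This is 1.24-fold (log2 ratio 0.31), about the size of the probe error, and it fell to 0.12 after quantile normalization. Gpx4 reduces lipid peroxides within membranes and protects cells from ferroptosis, an iron-dependent form of death. Its brighter probe set (1451695_a_at) read 1129 in DBA/1 and 801 in C57BL/6, or 1.41-fold (log2 ratio 0.49). The second (1456193_x_at) read 1009 and 608, a 1.66-fold difference (log2 ratio 0.73). Both Gpx4 probe sets thus pointed to DBA/1 and differed from each other by 0.24, less than the usual pair of probe sets; their mean was 0.61. After the 4 scalings the brighter one lay between 0.35 and 0.41.

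Gsr is the glutathione reductase, and Gclm is the modifier subunit of the enzyme that limits glutathione synthesis. Gclm did not share the direction of Prdx3, Txn1 and Gpx4, and the 2 Gsr probe sets had opposite signs. The brighter Gsr probe set (1421816_at) read 117 in DBA/1 and 108 in C57BL/6, a log2 ratio of 0.11, close to the median of all genes. The other (1421817_at) read 79.2 in DBA/1 and 117 in C57BL/6, a log2 ratio of -0.56, so Gsr had no agreed direction. Over the 10 member probe sets above the floor, 2 were at least 1.5-fold higher in DBA/1, against 10.7% of all probe sets, and 2 at least 1.5-fold higher in C57BL/6, against 6.75%. Gclm read 87.9 in DBA/1 and 139 in C57BL/6 with its single probe set (1418627_at). The difference was 1.58-fold (log2 ratio -0.66), and 4.71% of all genes had a ratio as low or lower. After the 4 scalings it lay between -0.77 and -0.72. Over the brightest probe set of each member, Prdx3 and Gclm had the highest and lowest ratios, 1.29 apart on the log2 scale; with the mean over probe sets Prdx2 (-0.83, resting on a bound) lay below Gclm. Gsr and Gclm were dim: neither reached the 75th percentile of its array (171 in DBA/1 and 162 in C57BL/6), which the other 5 members did.

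**Figure D2:**
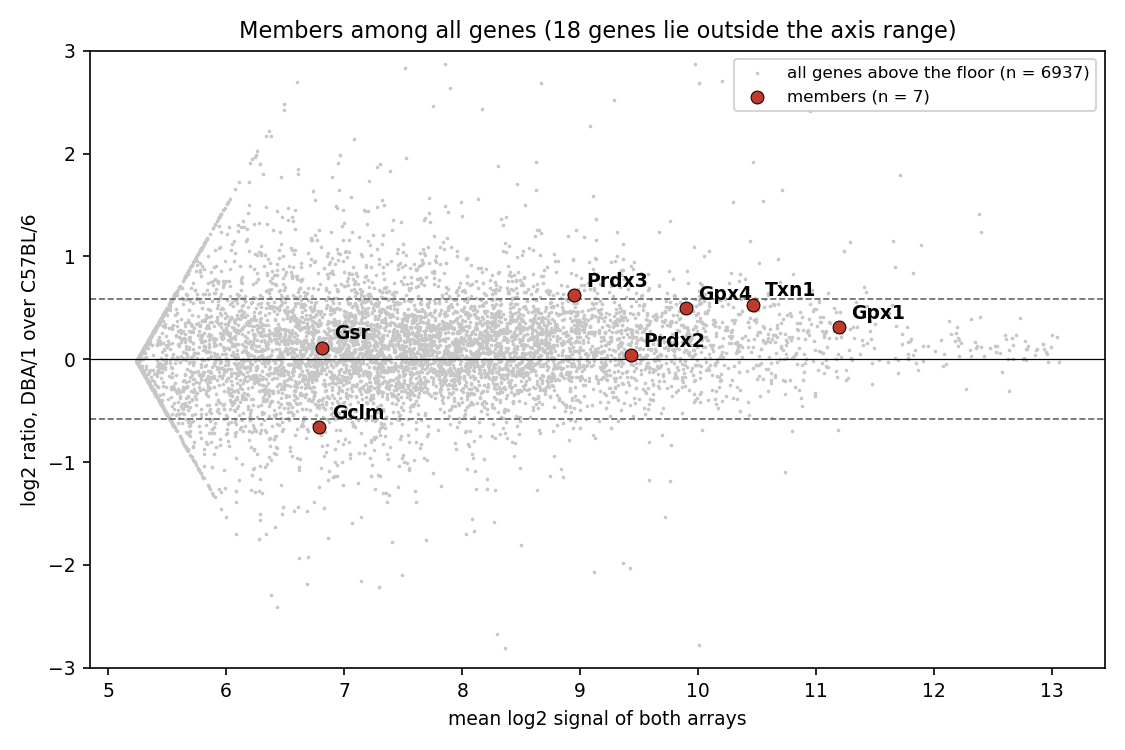
Log2 ratio of DBA/1 over C57BL/6 (vertical) against the mean log2 signal of both arrays (horizontal) for all 6937 genes above the floor in grey and the 7 measured members in red; dashed lines mark 1.5-fold, and 18 genes lie outside the vertical range. Prdx3 lies just over the upper line and Gclm just under the lower one, with Txn1 and Gpx4 just inside, and all 7 lie within the cloud of other genes.

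Gclm and Prdx1 are among the known targets of NRF2, the transcription factor that answers oxidative stress by binding antioxidant response elements. Which other members are targets was not examined. A core of that element, TGACNNNGC, was searched on both strands of the RefSeq promoter windows (250 bases before to 50 after a transcript start, build GRCm38.p6, from C57BL/6J). Windows were present for 8 of the 10 members, all but Gsr and Prdx6. Those of Gclm and Prdx1 held a match, and those of the other members, Txn1 among them, held none. Of all 32851 windows, 12.4% held one. The stretches around the matches are shown because the Gclm probe set and the probe sets shared by Prdx1 gave ratios of opposite sign. Each is written along the gene's strand, with the match in capitals as GCNNNGTCA, since the element reads on the opposite strand. The Gclm stretch is chr3:122245411-122245443 (plus strand, match 134 to 126 bases before the start) and the Prdx1 stretch is chr4:116685454-116685486 (plus strand, match 133 to 125 bases before it).
Gclm: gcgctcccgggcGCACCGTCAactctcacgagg
Prdx1: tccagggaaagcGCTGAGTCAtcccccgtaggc
The match of Prdx1 also holds the AP-1 motif TGANTCA, which 7.81% of all windows contain, and that of Gclm does not. A match describes these letters only, and the DBA/1 sequence was not analysed here.

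The wider redox system was described with 10 lists of 130 further genes, of which 109 had a probe set with 1 symbol and 77 were above the floor. These lists, and the lists of cell markers, were chosen with earlier results of these data known. The shares below therefore describe the lists and cannot serve as support for an excess. At 1.5-fold 15 of the 77 (19.5%) were higher in DBA/1, against 11.8% of all genes, and 3 (3.9%) were higher in C57BL/6, against 5.97%. At 2-fold it was 7 (9.09%) against 3.83%, and 1 (1.3%) against 1.9%. Glrx and Msrb1 lay on the 2-fold line, and after each of the 4 scalings both fell short of it and the 7 became 5. The median log2 ratio of the 77 was 0.17 as deposited, against 0.10 for all genes. After the 4 scalings it was 0.031 to 0.082, against -0.0064 to 0.024 for all genes. No member was 2-fold apart in its brightest probe set, though the dimmer Prdx2 probe set was at least 3.24-fold higher in C57BL/6. With 7 members and background shares of 3.83% and 1.9%, the absence of such a member does not set them apart from these genes.

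**Figure D3:**
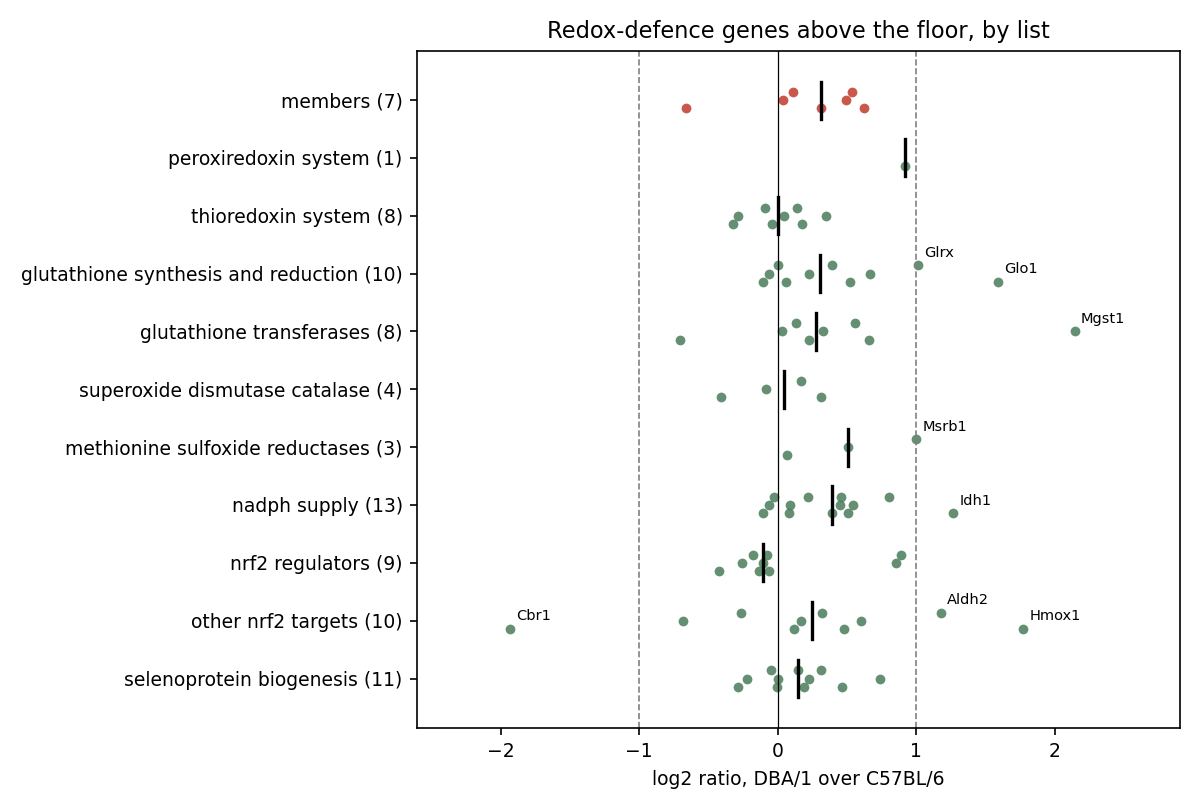
Log2 ratio of DBA/1 over C57BL/6 for the 7 members (red) and for the genes of 10 redox lists above the floor (green), 1 point per gene, with a black bar at each list's median and dashed lines at 2-fold. Named genes are those at least 2-fold apart; Mgst1, Hmox1 and Glo1 lie farthest to the right, and Cbr1 is the 1 gene beyond the left line.

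Among peroxiredoxin partners, Prdx4, the peroxiredoxin of the endoplasmic reticulum, read 276 in DBA/1 and 146 in C57BL/6 (1.89-fold), but a second, dim probe set read 43.8 and 39.1. Sulfiredoxin (Srxn1), which repairs overoxidised peroxiredoxins, was under the floor on both arrays with all its probe sets. The thioredoxin list had 8 genes above the floor. None was 1.5-fold apart in its brightest probe set, against 11.8% of all genes higher in DBA/1 and 5.97% in C57BL/6. Txnl4a read 624 and 566, but its dimmer probe set read 45.8 and 78.6 (1.71-fold higher in C57BL/6). A dimmer Txnl1 probe set read 296 and 221 (1.34-fold higher in DBA/1). The list's median was 0.0020, and -0.11 to -0.083 after the scalings. Txnrd1, the cytosolic reductase that recharges Txn1, read 235 in DBA/1 and 295 in C57BL/6, a log2 ratio of -0.33. Txn2, the mitochondrial thioredoxin, read 163 and 158, and Nxn (nucleoredoxin) 60.3 and 47.4. The ratios of Txn1 (0.53) and of its reductase thus had opposite signs, the latter at about the size of the probe error.

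In the list of glutathione synthesis and reduction, 10 of 19 genes with a probe set were above the floor. By their brightest probe sets 3 of the 10 were at least 1.5-fold higher in DBA/1, against 11.8% of all genes. None was 1.5-fold higher in C57BL/6, against 5.97% of all genes. Glo1 (glyoxalase 1), which uses glutathione to clear methylglyoxal, read 957 in DBA/1 and 318 in C57BL/6. That is 3.01-fold, and its other probe sets gave 4.36-fold (637 and 146) and 3.18-fold (441 and 139). Glrx (glutaredoxin 1), which removes glutathione from proteins, read 574 and 285 (2.01-fold), with a second probe set at 466 and 253 (1.84-fold). Gclc, the catalytic partner of Gclm, read 153 and 160, with another probe set at 111 and 187 (log2 ratio -0.74). The 6 other glutathione peroxidases on the list (Gpx2, Gpx3, Gpx5, Gpx6, Gpx7 and Gpx8) were under the floor on both arrays, so Gpx1 and Gpx4 were the ones with a usable signal. The list's median was 0.31, and 0.20 to 0.23 after the scalings.

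Of the glutathione transferases 8 of 20 were above the floor. Mgst1, a membrane-bound transferase and peroxidase, read 285 in DBA/1 and 64.4 in C57BL/6 (4.42-fold), with another probe set under the floor on both arrays. Mgst2 went the other way at 204 and 333 (1.63-fold higher in C57BL/6). Gsto1 read 235 and 188, but its dimmer probe set read 128 and 254 (1.99-fold higher in C57BL/6). Superoxide dismutases and catalase, which act upstream of and beside the peroxidases, had 4 genes above the floor. None was 1.5-fold apart, against 11.8% of all genes higher in DBA/1 and 5.97% in C57BL/6. Cat read 310 and 411 (log2 ratio -0.41; its other probe set, 367 and 297, went the other way), and Sod2 read 393 and 317 (0.31). Msrb1, a selenoprotein that repairs oxidised methionine, read 351 and 176, a 2.001-fold difference.

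The NADPH-supplying list had 13 genes above the floor, 10 of them with a ratio above 0 (60.6% of all genes had one). After the scalings it was 8 to 9 of 13, against 49.1% to 52.4% of all genes. The list's median was 0.39 (0.29 to 0.31 after the scalings). Idh1, a cytosolic NADPH source, read 148 in DBA/1 and 61.7 in C57BL/6 (2.41-fold). Its other probe set read 58.4 and 32.9, the latter under the floor, or at least 1.53-fold. Nnt read 205 and 209, but its dimmer probe set read 84.0 and 195 (2.32-fold higher in C57BL/6). Pgd read 771 and 442, and its other probe sets were 1.15-fold to 1.92-fold higher in DBA/1. Of the regulators of NRF2, 2 of 9 had a ratio above 0, against 60.6% of all genes, with a median of -0.10 (-0.21 to -0.19 after the scalings). Bach1, a repressor that competes with NRF2, read 389 and 209 (1.86-fold higher in DBA/1), with another probe set under the floor on both arrays. The small partner Mafg read 68.6 in DBA/1, at least 1.80-fold more than its C57BL/6 signal of 36.9, which was under the floor. Its other probe set read 44.8 and 28.4, at least 1.18-fold higher in DBA/1. Other NRF2 targets went both ways. Hmox1 (heme oxygenase 1) read 220 and 64.5 (3.41-fold) and Aldh2 (mitochondrial aldehyde dehydrogenase) 353 and 156 (2.26-fold) in DBA/1 and C57BL/6, whereas Cbr1 (carbonyl reductase 1) read 50.3 and 192 (3.82-fold higher in C57BL/6). The other probe sets of Aldh2 were under the floor on both arrays. In the selenoprotein list 1 of 11 genes passed 1.5-fold, against 11.8% of all genes higher in DBA/1 and 5.97% in C57BL/6. It was Selenoh with 694 and 416 (1.67-fold higher in DBA/1), followed by Selenof with 991 and 720 (1.38-fold). Selenos read 440 and 438, but its dimmer probe sets read 237 and 300, and 46.0 and 107 (2.32-fold higher in C57BL/6).

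Markers of other spleen cells differed between the arrays in the same RNA. As deposited, 60.6% of all genes above the floor had a ratio above 0. Each count of higher or lower genes in the cell lists below is to be read against that share. The neutrophil list was higher in DBA/1 for 16 of 16 genes above the floor (18 had a probe set; Cxcr2 and Padi4 were under it). Its summed signal was 35922 in DBA/1 and 10903 in C57BL/6, and its brightest genes were S100a9 (8708 and 3270), S100a8 (8272 and 3513) and Ngp (6228 and 1797). The monocyte and macrophage list was higher for 14 of 14, with summed signals of 9457 and 5044 and Lyz2 (2974 and 948), Ctss (2302 and 1833) and Csf1r (1156 and 672) the brightest; Marco and Fcgr1 were under the floor. The dendritic cell list was higher for 6 of 8 (5863 and 3234; Xcr1 under the floor), led by Cst3 (2546 and 877), Itgax (901 and 449) and Ccr7 (870 and 1001).

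Among lymphoid lists, B cell genes were higher in DBA/1 for 8 of 10 (summed 5113 and 4302; Pax5, Ebf1 and Vpreb3 under the floor), with Ighm at 3304 and 3326, Cd22 at 511 and 207 and Ms4a1 at 328 and 154. Plasma cell genes were higher for 4 of 4 (1885 and 1305; Sdc1 and Tnfrsf17 under the floor), with Jchain at 866 and 482, Xbp1 at 784 and 680 and Irf4 at 161 and 88.5. CD8 T and NK cell genes were lower in DBA/1 for 8 of 9 (summed 755 and 1689; Gzma, Ncr1 and Klra8 under the floor), with Ctsw at 207 and 407, Klrd1 at 145 and 470 and Nkg7 at 53.2 and 202. Platelet genes were near the floor, with 3 of 7 above it (Pf4 at 76.04 and 58.9, Ppbp at 74.4 and 55.5, Itgb3 at 9.43 and 44.8).

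The T cell list had summed signals of 13389 in DBA/1 and 14832 in C57BL/6, and 8 of its 10 genes were lower in DBA/1 (median log2 ratio -0.12, and -0.27 to -0.20 after the scalings). Its brightest genes were Cd3d (3538 and 3499), Cd3g (1798 and 1853) and Lat (1522 and 1694), and its lowest ratios, named after they were seen, were those of Zap70 (389 and 619) and Thy1 (1143 and 1664). Cd4 read 913 and 857, so T cell markers were far above the floor on both arrays. They do not measure how pure the sorted cells were. The neutrophil list had a larger summed signal than the T cell list in DBA/1 (35922 and 13389), and a smaller one in C57BL/6 (10903 and 14832). Cell division genes were higher in DBA/1 for 19 of 22 (12563 and 9141; Tyms under the floor), with Pcna at 3456 and 2492, Mcm7 at 1353 and 1088 and Mki67 at 1097 and 717. The part of any of these cells, or of dividing cells, in the ratios of Prdx3, Txn1, Gpx1, Gpx4 and the Prdx1 probe sets was not tested. In such bulk RNA, more cells of a type and more RNA per cell cannot be told apart.

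**Figure D4:**
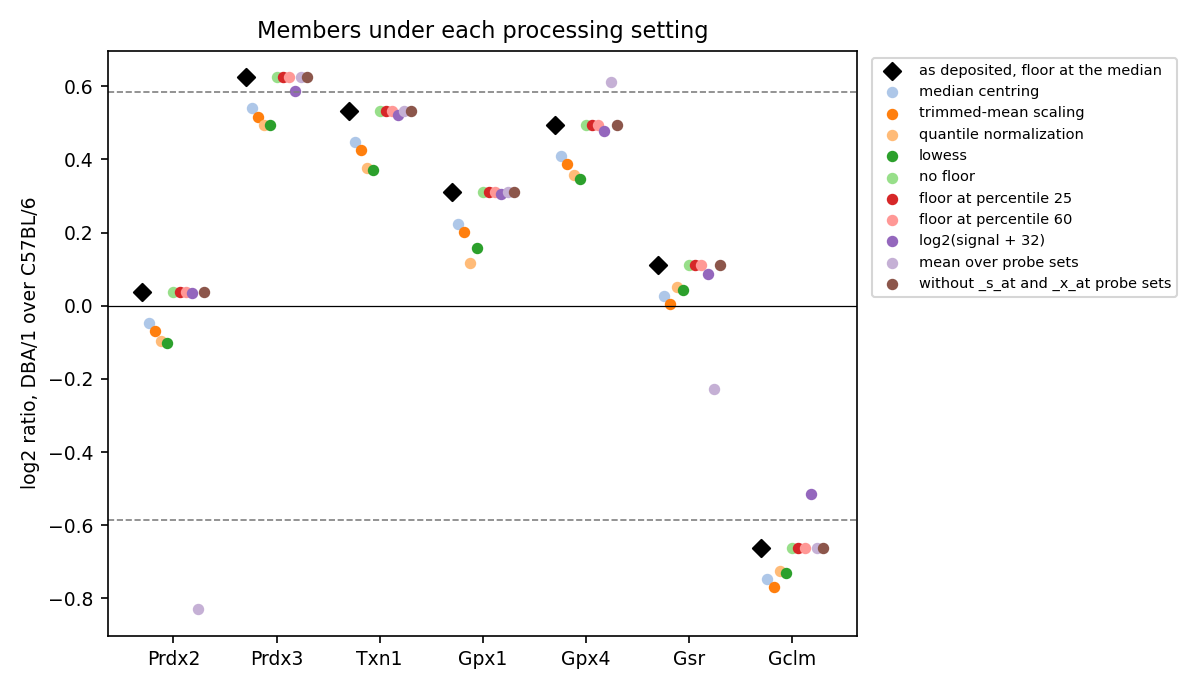
Log2 ratio of DBA/1 over C57BL/6 (vertical) of the 7 measured members under the values as deposited (black diamonds) and 10 alternative settings (coloured points); dashed lines mark 1.5-fold. Prdx3, Txn1, Gpx1 and Gpx4 stay above 0 and Gclm below 0 in all 10, while Prdx2 and Gsr have points on both sides. Removing or moving the floor and omitting _s_at and _x_at probe sets left all 7 values as deposited. The mean over probe sets changed only Prdx2, Gpx4 and Gsr.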

How the data were processed

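RNA of 1 DBA/1 and 1 C57BL/6 sample was labelled as biotinylated cRNA from oligo(dT)-primed cDNA, per the labels' protocols. The authors deposited linear signal intensities per probe set, made with MAS5 per the submitters' processing notes; a version, a scaling target and a genome build are not given there. Without the outer 2% on each side, mean signals were 146 (DBA/1) and 135 (C57BL/6), so the arrays were not on 1 scale. Of 22626 probe sets other than 64 controls, a platform table gave 1 symbol for 20380, several for 691 and none for the remaining 1555; 20351 of the first matched RefSeq (GRCm38.p6) by entrez identifier. No gene was named from a probe set with several symbols, apart from the Prdx1 and Gm21399 group, given as shared.

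A gene was represented by its brightest probe set (mean log2 signal), and was used if 1 array exceeded the floor (array median). Differences were counted at 1.5-fold, with 2-fold as a stricter size. No test, p-value or replicate error is possible with 1 array per strain, whose number limits the precision. A gene of a redox list was named if 2-fold apart, otherwise the 2 largest differences were, with some list members added after their values were seen; cell lists show their 3 brightest genes, and Cd4. Members and lists were chosen with earlier results of these data known. Calculations used Python 3.11.15, pandas 2.3.3 and statsmodels 0.14.6 (lowess, span 0.3) and were tested on simulated arrays.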

Additional observations from a re-analysis of the deposited data

How the results depend on the processing

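The median log2 ratio of the members was 0.31 as deposited and stayed above 0 in every alternative run, from 0.12 (quantile normalization) to 0.40 (with the shared Prdx1 probe sets, an alternative chosen after seeing the data); over all 10 usable member probe sets it was 0.21. The count of members 1.5-fold higher in DBA/1 (1, Prdx3) became 0 after median centring, trimmed-mean scaling, quantile normalization, lowess and at 2-fold, and 2 with the mean over probe sets. The count 1.5-fold higher in C57BL/6 (1, Gclm) became 0 with log2(signal + 32), at 2-fold and with a minimum signal at percentile 75 (which Gclm misses), and 2 with the mean over probe sets, where Prdx2 was -0.83 (resting on a bound) and Gsr -0.23. Floors at percentiles 25 and 60, no floor and the omission of _s_at and _x_at probe sets left every member's ratio as deposited, so both counts stayed at 1. Signals under the floor limit the second probe sets of Prdx2 and Txn1. No paired analysis was possible because each strain has 1 array and the labels carry no replicate numbers.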
